A study of Bos taurus with 45 samples.

Results

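*FOSB* (ENSBTAG00000008182), *FOS* (ENSBTAG00000004322) and *EGR1* (ENSBTAG00000010069) are 3 of the 24616 bovine genes measured in ruminal papillae, the finger-like folds of the rumen wall. They were chosen by their read levels in these samples, because all 3 were high together in a few samples, so their levels, diet differences and correlations are described here without a test. The 45 samples came from 15 Angus-Hereford cross-bred yearling heifers, each biopsied from the ventral sac on 3 diets. The labels name the diets by 3% grain (days 1 to 4), 75% grain (days 13 to 16) and 92% grain (days 21 to 29), whereas the study's text gives slightly lower grain contents for the same diets, and the labels' names are used here. Every heifer passed through intermediate diets in the same order, so that diet and time in the experiment cannot be told apart. The labels call the transition rapid, and the study's text uses both rapid and gradual for it. There was no group kept on a constant diet among the samples analysed here, and each sample was from 1 heifer on 1 diet.

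Immediate early genes are transcribed within minutes of a stimulus without new protein being made, and their messages are short-lived. The proteins of *FOS* and *FOSB* pair with JUN proteins to form the transcription factor AP-1, and *EGR1* encodes a zinc finger transcription factor. In epithelia they respond to growth factors, stretch, wounding and stress.

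Levels are given in RPM, a gene's reads divided by all reads on genes of that sample and scaled to 1000000 reads (1 M). The totals recovered from the deposited values were 22.5 to 37.1 M reads on genes (median 30.8 M) per sample. The study's text gives a lower mean number of reads per sample than this median, and the reason was not tested. The 10 highest genes held 16.7 to 26.0% of the reads on genes. The library of heifer 286 on 92% grain stood apart, with the highest of these shares and the lowest scaling factor (0.833, trimmed mean of M values, TMM). It ranked 32nd for *FOSB*, 42nd for *FOS* and 39th for *EGR1* among the 45 samples. Of 42 marker genes listed for epithelium, blood, leukocytes, endothelium, fibroblasts and smooth muscle, 0 could be matched to the gene identifiers of the files with the names at hand, so the tissue label could not be checked against markers. In whole tissue, fewer cells of a type and less RNA per cell cannot be told apart.

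The median of *FOSB* was lower on each richer diet and its values were the most uneven on 92% grain, while the medians of *FOS* lay close together (0.880 for 92% over 3% grain) and those of *EGR1* differed little (1.19 for 92% over 3% grain). *FOSB* ranged from 1.17 to 35.0 RPM on 3% grain with a median of 8.86, from 0.850 to 10.5 RPM on 75% grain with a median of 4.30, and from 0.548 to 66.0 RPM on 92% grain with a median of 1.68. The highest and the lowest sample of all 45 were both on 92% grain, and the ranges of the 3 diets overlapped. The mean of *FOSB* was 10.95 ± 8.56 RPM on 3% grain (SD, n = 15) and 10.8 ± 19.9 RPM on 92% grain (SD, n = 15), a ratio of 0.986, although the ratio of the medians was 0.190. The lowest *FOSB* value stood for 17 reads, with a 95% Wilson interval of 0.342 to 0.878 RPM, and the highest for 2234 reads, with an interval of 63.3 to 68.8 RPM. These intervals cover counting error only.

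*FOS* ranged from 45.2 to 334.8 RPM on 3% grain with a median of 114.4, from 54.7 to 155.4 RPM on 75% grain with a median of 105.7, and from 28.4 to 432.8 RPM on 92% grain with a median of 100.6. The range was narrowest on 75% grain and widest on 92% grain, and the 3 ranges overlapped. The mean was 134.0 ± 74.0, 99.8 ± 31.1 and 143.0 ± 117.6 RPM (SD, n = 15 each) in the same order. *EGR1* ranged from 8.38 to 63.7 RPM on 3% grain with a median of 12.9, from 4.92 to 69.9 RPM on 75% grain with a median of 14.7, and from 7.74 to 95.9 RPM on 92% grain with a median of 15.3. Its mean was 19.7 ± 16.0, 20.5 ± 16.9 and 28.4 ± 26.3 RPM (SD, n = 15 each), above the median on every diet, with a few heifers several times higher than the rest.

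**Figure D1:**
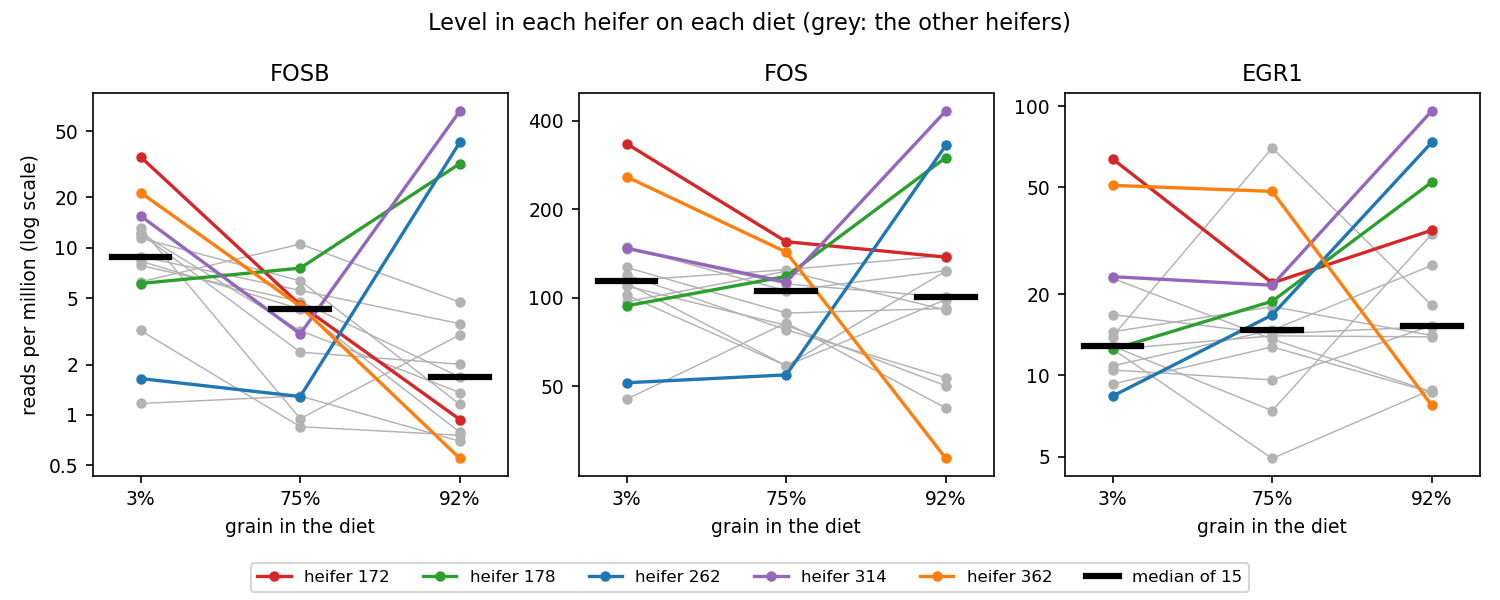
RPM (log axis) of *FOSB*, *FOS* and *EGR1* in each of the 15 heifers on 3%, 75% and 92% grain; lines join the samples of a heifer, black bars are the medians of 15, and the 5 coloured heifers each had 1 sample above 2 times the median of all 45 samples in all 3 genes. Heifers 172 and 362 were high on 3% grain and heifers 178, 262 and 314 on 92% grain, and the *FOSB* median was 8.86, 4.30 and 1.68 RPM.

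The same 5 samples were the 5 highest of both *FOSB* and *FOS*. Heifer 314 on 92% grain was the highest for every gene, with 66.0 RPM of *FOSB*, 432.8 RPM of *FOS* and 95.9 RPM of *EGR1*. Heifer 262 on 92% grain had 42.8, 330.5 and 73.4 RPM in the same order, and heifer 178 on 92% grain had 31.9, 300.4 and 52.2 RPM. On 3% grain, heifer 172 had 35.0, 334.8 and 63.7 RPM and heifer 362 had 21.4, 258.5 and 50.8 RPM. None of the 5 was on 75% grain. A gap followed these samples in *FOS*, in which heifer 362 on 3% grain ranked 5 with 2.32 times the median of the 45 samples and heifer 172 on 75% grain ranked 6 with 1.39 times that median.

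Relative to its own median over the 45 samples, *FOSB* reached 14.8-fold, *EGR1* 6.61-fold and *FOS* 3.88-fold, all in heifer 314 on 92% grain. Samples above 4 times the median numbered 5 for *FOSB*, 4 for *EGR1* and 0 for *FOS*, so that 0 samples passed this limit in all 3 genes. At 3 times the median, 2 samples passed in all 3 genes, heifer 314 on 92% grain and heifer 172 on 3% grain. At 2 times the median, a limit taken after the values were seen, the 5 samples named above passed in all 3 genes.

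*EGR1* was also high in samples where *FOS* was near its median. Heifer 360 on 75% grain had 69.9 RPM of *EGR1*, the third highest of the 45 samples and 4.81 times the median, with 124.8 RPM of *FOS*, 1.12 times its median, and 10.5 RPM of *FOSB*, the highest of that diet and 2.35 times its median over the 45 samples. Heifer 362 on 75% grain had 48.2 RPM of *EGR1* with 143.1 RPM of *FOS* and 4.47 RPM of *FOSB*, which was the median of *FOSB* over the 45 samples. Of the 5 highest samples of *EGR1*, 4 were among the 5 highest of *FOS*.

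The 5 high samples came from 5 different heifers, each high in all 3 genes on 1 diet only. Heifer 362 had the second highest *FOSB*, *FOS* and *EGR1* on 3% grain and the lowest of all 15 heifers for each on 92% grain, at 0.548, 28.4 and 7.74 RPM. Heifer 262 was low on 3% grain, with 1.65 RPM of *FOSB*, 51.5 RPM of *FOS* and the lowest *EGR1* of that diet at 8.38 RPM, and was second highest for all 3 genes on 92% grain. Heifer 172 was above the diet's median in *FOS* and *EGR1* on every diet. It had 334.8, 155.4 and 137.7 RPM of *FOS* and 63.7, 22.0 and 34.6 RPM of *EGR1* on 3%, 75% and 92% grain. Its *FOSB* was 35.0, 4.55 and 0.937 RPM in the same order. Across the 15 heifers, the level of *FOS* on 92% grain had a Pearson r of -0.13 and a Spearman rho of 0.04 with its level on 3% grain, and r was -0.54 without the 2 heifers farthest from the median on 3% grain. For *FOSB* r was -0.18 and rho -0.07 (r = -0.09 without 2 heifers), and for *EGR1* -0.06 and -0.09 (r = 0.02 without 2 heifers). Between 3% and 75% grain r was 0.65 for *FOS*, 0.44 for *EGR1* and 0.38 for *FOSB*, and 0.62, 0.19 and 0.04 without 2 heifers. Between 75% and 92% grain r was -0.04, 0.09 and 0.04 in the same order, and 0.25, 0.51 and -0.09 without 2 heifers. Several of these values thus moved with the choice of heifers. These correlations are descriptions over 15 heifers.

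When each diet's mean was subtracted, log2(RPM + 1) of *FOS* and *FOSB* had a Pearson r of 0.85 over the 45 samples, *FOS* and *EGR1* 0.84 and *FOSB* and *EGR1* 0.75. The Spearman rho was 0.73, 0.85 and 0.67. Without the 2 samples farthest from the median of the first gene of each pair (heifer 314 on 92% grain and heifer 362 or, for *FOSB* and *EGR1*, 262 on 92% grain), r was 0.83, 0.81 and 0.67, with the other high samples still included. The genes were chosen for being high together, so these values only describe how closely they followed each other. The 45 points share heifers, and each gene is a share of the same library total. Within the diets, r of *FOS* and *FOSB* was 0.89 on 3%, 0.71 on 75% and 0.87 on 92% grain, r of *FOS* and *EGR1* was 0.88, 0.64 and 0.94, and r of *FOSB* and *EGR1* was 0.78, 0.53 and 0.86. All 3 were lowest on 75% grain, the diet without a sample that was high in all 3 genes, where they were 0.57, 0.69 and 0.39 without 2 samples.

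**Figure D2:**
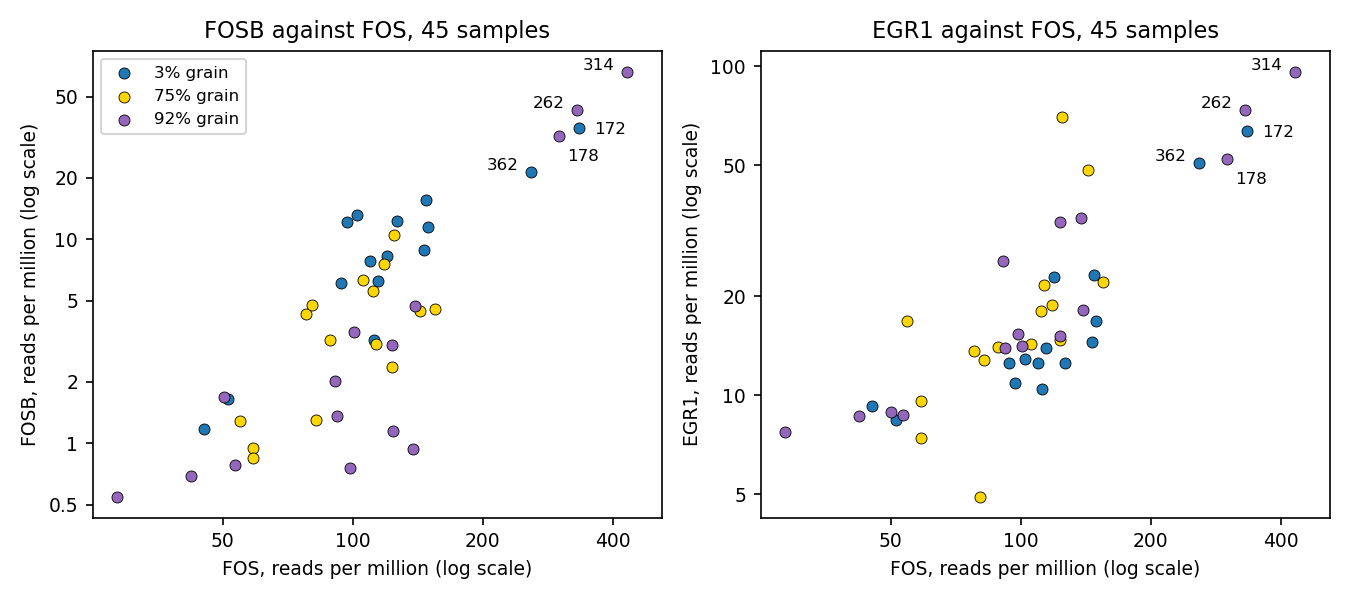
*FOSB* (left) and *EGR1* (right) against *FOS* in the 45 samples, in RPM on log axes; each point is a sample coloured by diet, and the 5 samples with the highest *FOS* carry the heifer number. The 5 numbered samples lie at the upper end of both plots, the heifer with 69.9 RPM of *EGR1* lies above the rest on 75% grain, and the other points of 92% grain lie mostly below those of 3% grain in the left plot.

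The slope of log2 *FOSB* on log2 *FOS* was 1.59 ± 0.23 on 3%, 1.72 ± 0.44 on 75% and 1.797 ± 0.27 on 92% grain (± SE, n = 15 samples each), so that *FOSB* varied more steeply than *FOS*. The slope of log2 *EGR1* on log2 *FOS* was 1.02 ± 0.15, 1.27 ± 0.42 and 0.99 ± 0.10. This was near a proportional change on 3% and 92% grain. On 75% grain the SE was too large to tell.

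The ratio of the genes within a sample does not depend on the library total. For every 100 *FOS* reads there were 2.59 to 12.9 *FOSB* reads on 3% grain (median 7.14), 1.45 to 8.44 on 75% grain (median 3.13) and 0.681 to 15.2 on 92% grain (median 2.21). The ratio was lower on 75% than on 3% grain in 14 of 15 heifers, by a median of 0.72 on the log2 scale, and lower on 92% than on 3% grain in 12 of 15 heifers, by a median of 1.90. On 92% against 75% grain it was lower in 9 of 15 heifers and higher in 6, with a median change of -0.70. The 3 heifers in which it was higher on 92% than on 3% grain were 178, 262 and 314, with 10.6, 13.0 and 15.2 *FOSB* reads for every 100 *FOS* reads on 92% grain. In the other 12 heifers the ratio was lower on 92% than on 3% grain.

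*EGR1* differed in the opposite direction relative to *FOS*. There were 9.35 to 20.5 *EGR1* reads for every 100 *FOS* reads on 3% grain (median 12.6), 6.10 to 56.0 on 75% grain (median 15.9) and 12.3 to 28.2 on 92% grain (median 17.7). The ratio was higher on 92% than on 3% grain in 13 of 15 heifers, by a median of 0.47 on the log2 scale, and higher on 75% than on 3% grain in 11 of 15. On 92% against 75% grain it was higher in 7 of 15 heifers and lower in 8, with a median change of -0.06. The widest range, on 75% grain, was set by heifer 360 at the top and heifer 286 at the bottom.

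**Figure D3:**
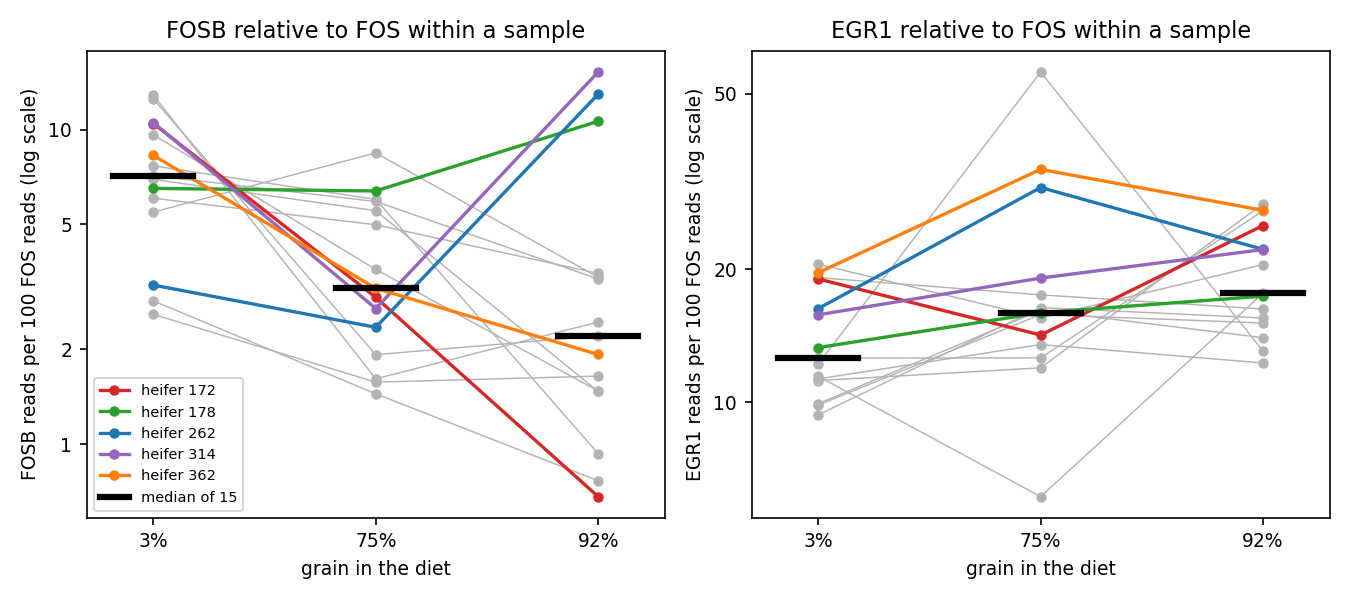
*FOSB* (left) and *EGR1* (right) reads for every 100 *FOS* reads in the same sample (log axis), for each of the 15 heifers on 3 diets; lines join the samples of a heifer, black bars are the medians of 15 and colours mark the 5 heifers with a sample high in all 3 genes. The median of *FOSB* was 7.14, 3.13 and 2.21, with heifers 178, 262 and 314 at 10.6, 13.0 and 15.2 on 92% grain, and the median of *EGR1* was 12.6, 15.9 and 17.7.

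As fold changes between the diets, the 3 genes differed in size and in direction. On the log2(RPM + 1) scale *FOSB* differed by -1.09 ± 0.33 on 75% against 3% grain (± SE, n = 15 against 15), and was lower in 12 of 15 heifers. On 92% against 3% grain its difference was -1.06 ± 0.51, again lower in 12 of 15 heifers, and on 92% against 75% grain it was 0.03 ± 0.48, lower in 11 of 15. In the latter comparison the ratio of the means was 2.65 and the ratio of the medians 0.391. The mean and the median of *FOSB* thus pointed in opposite directions, and the difference on 92% against 75% grain was below 0 with a pseudocount of 0.1 (-0.15) and without heifer 178 (-0.11), 182 (-0.04), 262 (-0.27) or 314 (-0.26). *FOSB* entered the set of genes tested through 3% grain, the diet on which its median was highest, since it was at or below 1 RPM in 2 heifers on 75% grain and in 5 heifers on 92% grain. The study listed *FOSB* among genes dependent on the diet named 3% grain here. Its diet values may thus also have played a part in its choice.

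*FOS* differed by -0.32 ± 0.21 on 75% against 3% grain, by -0.13 ± 0.32 on 92% against 3% grain and by 0.19 ± 0.28 on 92% against 75% grain. *EGR1* differed by 0.03 ± 0.29, 0.33 ± 0.33 and 0.31 ± 0.34 (log2 differences ± SE, n = 15 against 15). The difference of *FOS* on 92% against 3% grain was 0.09 without heifer 362, and that of *EGR1* on 75% against 3% grain was -0.06 with TMM scaling and -0.13 without heifer 360. All of these were smaller than the SD of the changes within heifers, which was 0.55, 1.38 and 1.21 for *FOS* and 0.90, 1.41 and 1.36 for *EGR1* in the same order. This SD describes how single heifers differed and is not the error of a mean difference. The 92% and 75% comparisons with 3% grain share the samples of 3% grain. All 3 genes moved in the same direction in 11 of 15 heifers from 3% to 75% grain (8 down and 3 up), in 10 of 15 from 3% to 92% grain (7 down and 3 up), and in 8 of 15 from 75% to 92% grain (4 down and 4 up). Within heifers, the change from 3% to 92% grain ran from -4.22 in heifer 172 to 4.05 in heifer 262 for *FOSB*, from -3.14 in heifer 362 to 2.66 in heifer 262 for *FOS*, and from -2.57 in heifer 362 to 2.99 in heifer 262 for *EGR1*, on the log2(RPM + 1) scale.

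Among the 11516 genes with more than 1 RPM in all 15 heifers of at least 1 diet, which include all 3 members, 177 were called on 75% against 3% grain, with a fold change above 1.5 and a p under 0.05 after Benjamini-Hochberg adjustment (limma, 1.54% of the genes, 162 of them higher) and 238 on 92% against 3% grain (2.07%, 205 of them higher). With TMM scaling, 145 of 191 genes called on 92% against 3% grain were higher. On 92% against 75% grain 0 genes passed (0%), and edgeR on the recovered reads called 0. At an unadjusted p under 0.05 there were 1330 genes, a larger share than the 0.05 expected without any difference. With each heifer's samples paired by a replicate block, limma called 14 genes, and 92 genes had an adjusted p under 0.05.

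A wide spread between heifers follows from how the 3 genes were chosen, and its size is given as a description. The SD of log2(RPM + 1) within diets was 1.28 for *FOSB*, 0.92 for *EGR1* and 0.79 for *FOS*, the 21st, 57th and 97th highest of 11516 genes, whose median was 0.21. By diet, the SD of *FOSB* was 1.08, 0.80 and 1.83 and that of *FOS* 0.72, 0.47 and 1.09 on 3%, 75% and 92% grain, while the median over all genes was 0.22, 0.20 and 0.21. *FOSB* and *FOS* varied least on 75% and most on 92% grain, whereas the median gene varied least on 75% and most on 3% grain. *EGR1* had an SD of 0.81, 0.89 and 1.11. Diet held 13.9% of the variance of *FOSB*, 2.74% of that of *FOS* and 2.68% of that of *EGR1*, against a median of 8.86% over all genes. The heifers' means over the 3 diets held 29.0, 35.7 and 40.7% (median over all genes 39.5%). The remainder, which includes measurement noise, held 57.1, 61.5 and 56.6%, against a median of 46.6% over all genes. These are raw shares of the sum of squares, not corrected for the number of heifers and diets. Heifer means hold such a share even without lasting differences between heifers, so it does not measure those differences. *FOSB* is among the genes tested only through 3% grain, where it was high.

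A test of the spread itself across all genes, with limma on the absolute deviation from the median of the sample's diet, gave 0 calls (0%) at an adjusted p under 0.05 in each of the 3 comparisons. At an unadjusted p under 0.05 there were 640 genes for 75% against 3%, 522 for 92% against 3% and 330 for 92% against 75% grain, of 11516. Without any difference a share of 0.05 of the genes would be expected below this limit, so these counts do not show differences in spread.

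**Figure D4:**
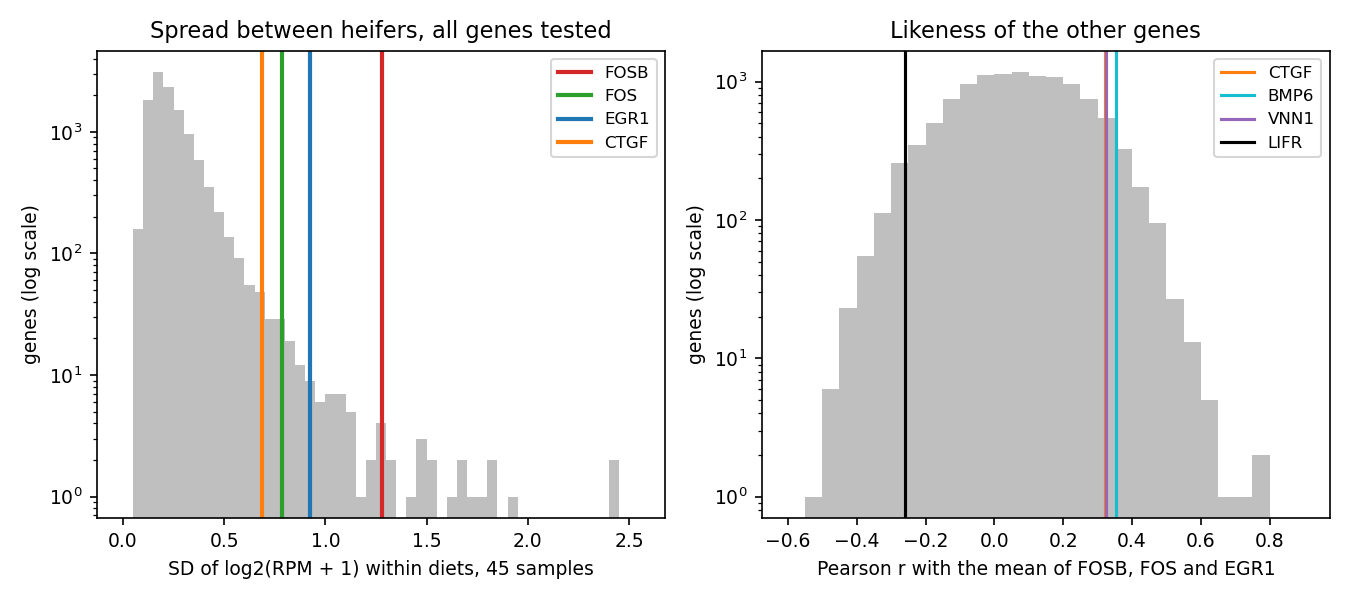
Left, number of genes (log axis) by SD of log2(RPM + 1) within diets for the 11516 genes tested, with lines at the SD of *FOSB* (1.28), *EGR1* (0.92), *FOS* (0.79) and *CTGF* (0.68). Right, number of the other 11513 genes (log axis) by Pearson r with the mean of the 3 members over 45 samples after subtracting diet means, where 49 genes lie above 0.5 and lines mark *CTGF*, *BMP6*, *VNN1* and *LIFR*, which lie between -0.26 and 0.36.

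Of the 11515 other genes, *FOSB* was the most correlated with *FOS* and *EGR1* the second, and for *EGR1* the order was *FOS* and then *FOSB*. For *FOSB*, *FOS* ranked 1 and *EGR1* ranked 4. The 3 genes were chosen for being high together in these samples, so these ranks follow in part from that choice and are descriptions only. With the mean of the 3 standardised members, 49 of 11513 other genes had r over 0.5 (0.426%) and 3 had r over 0.7, while the median gene had r = 0.07. The highest were ENSBTAG00000013863 (r = 0.79, rho = 0.73) and ENSBTAG00000004037 (r = 0.75, rho = 0.80), and the lowest were ENSBTAG00000008091 (r = -0.50, rho = -0.57) and ENSBTAG00000000660 (r = -0.49, rho = -0.54). These 4 identifiers are not paired with gene names in the sources used here.

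ENSBTAG00000013863 was highest in the same 3 samples of 92% grain, which follows in part from its choice by correlation with the members. It had 116.7 RPM in heifer 314, 107.6 RPM in heifer 178 and 100.3 RPM in heifer 262, against a median of 40.0 RPM over the 45 samples. In heifer 360 on 75% grain, where *EGR1* was high and *FOS* near its median, it had 32.6 RPM. On 92% against 75% grain it differed by 0.49 ± 0.16 on the log2(RPM + 1) scale and did not pass (limma, adjusted p = 0.240). ENSBTAG00000004037 spanned a narrower range, from 76.2 to 225.4 RPM, with its highest value in heifer 314 on 92% grain and its second highest, 213.6 RPM, in heifer 362 on 3% grain. ENSBTAG00000000660 was higher on 75% than on 3% grain by 0.28 ± 0.10 (limma, adjusted p = 0.0452), in 13 of 15 heifers, but below the fold change of 1.5 set for a call.

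Of 77 other genes listed for the immediate early response (AP-1 subunits, EGR factors, feedback inhibitors, early effectors, upstream kinases and heat shock genes), only *CTGF* (CCN2, ENSBTAG00000006367) could be matched by name. *CTGF* encodes a secreted matrix-associated protein whose gene responds early to growth factor and mechanical signals. It ranged from 0.741 to 11.4 RPM on 3% grain with a median of 2.64, from 1.93 to 9.12 RPM on 75% grain with a median of 5.27, and from 0.842 to 9.50 RPM on 92% grain with a median of 4.76. The median was higher on both grain-rich diets and the ranges overlapped. *CTGF* entered the set of genes tested only through 75% grain, where its median was highest. It was at or below 1 RPM in 2 heifers on 3% grain and in 1 heifer on 92% grain. Its name was at hand because the study listed it among genes dependent on the diet named 75% grain here. Its diet values thus played a part in its choice, and its tests of level and spread serve as descriptions only. *CTGF* differed by 0.55 ± 0.24 on 75% against 3% grain (limma, adjusted p = 0.103; higher in 11 of 15 heifers), by 0.47 ± 0.27 on 92% against 3% grain (limma, adjusted p = 0.244; 11 of 15) and by -0.08 ± 0.21 on 92% against 75% grain (limma, adjusted p = 0.908; higher in 7 of 15), and passed in none of them. Leaving out heifer 182 or heifer 236 brought the first comparison past the threshold, with a difference of 0.70 (limma, adjusted p = 0.0309) or 0.66 (limma, adjusted p = 0.0394).

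The spread of *CTGF* between heifers did not pass a test between any 2 diets. The differences in absolute deviation were -0.23 ± 0.18, -0.08 ± 0.20 and 0.15 ± 0.15 on the log2 scale for 75% against 3%, 92% against 3% and 92% against 75% grain (limma, adjusted p = 0.902, 1.000 and 0.999). In the 5 samples that were high in all 3 members, *CTGF* ranked 28th (heifer 314), 15th (heifer 262), 8th (heifer 178), 37th (heifer 172) and 9th (heifer 362) of 45. Its r was 0.26 with *FOSB*, 0.33 with *FOS* and 0.32 with *EGR1*. It was thus in the upper part of the samples in 3 of the 5 and in the lower part in heifers 314 and 172. Of the 12 genes other than *FOSB* for which a name and an identifier stand side by side in the study's text, r with the mean of the members ran from -0.26 for *LIFR*, a cytokine receptor gene, to 0.36 for *BMP6*, a bone morphogenetic protein gene, the 605th of 11516.

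The 5 samples high in all 3 members had 33.9 M (heifer 314), 32.7 M (heifer 262), 29.2 M (heifer 178), 32.7 M (heifer 172) and 34.6 M (heifer 362) reads on genes, within the range of the other samples. By the median distance of all tested genes from their diet median, heifer 172 was the farthest of the 15 samples of 3% grain, and heifers 314 and 262 were the closest and second closest of the 15 samples of 92% grain. The other high samples were in the middle, with heifer 362 the 8th farthest on 3% grain and heifer 178 the 7th farthest on 92% grain. Within a diet (n = 15), the 18 Pearson correlations between a member's log2(RPM + 1) and either the reads on genes or the share of the 10 highest genes lay between -0.53 and 0.36. The one farthest from 0 was *FOS* on 3% grain with the share of the 10 highest genes, at r = -0.53 and rho = -0.35, and its r was -0.08 without the 2 samples farthest from the median share. The lane of each library was not given in the sources used here, so values within lanes could not be computed.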

How the data were processed

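mRNA of 45 ruminal papillae samples (15 heifers on 3 diets) was sequenced by the authors as 100-bp paired-end reads, with RNA integrity numbers above a set limit, and lanes that each held all 3 diets. They demultiplexed with CASAVA 1.8, aligned with TopHat2 2.0.10 (default settings) to UMD 3.1 and counted reads per Ensembl gene with htseq-count. The deposited values are RPM, which the authors computed as reads on a gene per 1000000 reads. Each file summed to 1000000, so the total was the reads on genes, and 100% of the values were whole reads to within 0.05 read. This gave 22.5 to 37.1 M reads on genes (M, 1000000 reads) per sample. These totals are mostly above the mean number of reads per sample in the study's text, for a reason not tested. The read counts, their intervals and the edgeR fits rest on the recovered totals. RPM shares the library total between all genes, so a change in a few abundant genes moves the rest.

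Genes with RPM over 1 in all 15 heifers of at least 1 diet (11516 of 24616) were fitted with limma 3.58.1 (R 4.3.3, variance trend) on log2(RPM + 1), with only the samples of 2 diets in each fit, since the study compared diets in pairs, and without a heifer term, which its methods do not mention. A pseudocount of 1 understates changes of low genes. Thresholds were a Benjamini-Hochberg adjusted p of 0.05 and a fold change of 1.5. Although whole reads were recovered, edgeR 4.0.16 served as an alternative only. Values were computed in Python 3.11.15 (pandas 2.3.3, numpy 2.4.6, scipy 1.17.1) and plotted with matplotlib 3.10.9. The fits were tested on simulated data, in which the test of spread recovered few genes unless the simulated difference in spread was large. No library pair agreed within sampling noise (smallest chi-square per degree of freedom 20.6 over 990 pairs).

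The members, gene lists and tests were chosen with earlier results of these data known. The 3 members were named with the samples above 4 times the gene's median over the 45 samples, any listed gene called, and the genes with the highest and lowest correlation to the mean of the members, of which 4 are printed. Identifiers were named only from the 13 that stand beside a name in the study's text and from the definition of the members. RefSeq, searched by symbol, listed 0 genes overlapping *FOSB*, *FOS*, *EGR1* or *CTGF*. Samples of the same heifer are paired by the animal number in the labels, and their deviations from the diet means had a median correlation across genes of 0.36 (45 pairs, 39 above 0.1) against -0.02 between different heifers (630 pairs). Alternatives tried were a replicate block for the heifer, other pseudocounts, filters, scaling, a fit of all samples, no variance trend, no fold change minimum, and each heifer left out. Ruminal pH was not analysed here.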

Additional observations from a re-analysis of the deposited data

How the results depend on the processing

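The difference of *CTGF* kept its direction and stayed short of the threshold under every alternative on 92% against 3% grain, with values from 0.36 to 0.62 over the settings and from 0.35 to 0.63 with a heifer left out. On 75% against 3% grain it lay between 0.38 and 0.75 over the settings and between 0.47 and 0.70 with a heifer left out, and passed without heifer 182 or 236 only. On 92% against 75% grain it lay between -0.13 and -0.03 over the settings and between -0.19 and 0.04 with a heifer left out, and turned sign without heifer 286, at 0.038. In fits with a replicate block for each heifer the differences of *CTGF* were the same 0.55, 0.47 and -0.08 (limma, adjusted p = 0.0546, 0.223 and 0.865), and the block changed no call on it. The spread of *CTGF* kept its direction and stayed short of the threshold throughout, from -0.29 to -0.12, from -0.18 to -0.01 and from 0.05 to 0.21 with a heifer left out. Because *CTGF* was chosen in part through its values on 75% grain, these results only describe it.

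The number of samples high in all 3 members depends on the limit. It was 0 at 4 times the median, 2 at 3 times, 0 at 6 times, 1 at 4 times the median of the sample's own diet, 0 with TMM scaling and 5 at 2 times, a limit added after the data were seen. The correlation of *FOS* with *FOSB* was 0.73 by Spearman's rho against 0.85. The log2 difference of *FOSB* ranged from -1.22 to -0.97 (75% against 3%), from -1.43 to -0.84 (92% against 3%) and from -0.27 to 0.16 (92% against 75%) with a heifer left out. As a ratio of mean RPM, on the log2 scale, it was -0.02 for 92% against 3% and 1.41 for 92% against 75%. For *FOS* the ranges were -0.40 to -0.26, -0.32 to 0.09 and 0.02 to 0.37, and for *EGR1* -0.13 to 0.13, 0.14 to 0.54 and 0.18 to 0.51; 5 of the 15 fits of *EGR1* on 75% against 3% grain were below 0.

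With a pseudocount of 0.1, 307 and 358 genes were called on 75% and 92% against 3% grain in place of 177 and 238, and without a fold change minimum 2343 and 2076. On 92% against 75% grain 14 genes were called with the replicate block, 2 with TMM scaling and 2, 1 and 8 without heifer 170, 182 and 236, in place of 0. A spread call (1 gene) appeared on 92% against 75% grain without the expression filter. The cause of these shifts was not tested. Depth limits *FOSB* on 92% grain, where the lowest value stood for 17 reads.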
